A study of Mus musculus with 6 samples.

Results

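The sites described here are the strongest E2F1 binding sites of NIH/3T3, a long-established fibroblast line from mouse embryos, as ranked by fold enrichment in chromatin immunoprecipitation followed by sequencing (ChIP-seq). Overlapping peaks of both E2F1 libraries were merged where they shared at least 1 bp, which gave 7001 intervals on assembled chromosomes that held a peak of each. A site was kept when its highest fold enrichment was at least 25 in replicate 1 and at least 25 in replicate 2. This left 384 sites, or 5.48% of the shared intervals. The fold is the authors' own value for each peak and compares the pileup of reads at the summit with the local background. The sites were thus chosen by the folds of these same libraries, which are given as a description with no test.

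The E2F1 group had 2 libraries of cells with a doxycycline-inducible E2F1 construct, and the empty vector (EV) group had 2 libraries of cells with the inducible vector alone. All cells of both groups were starved of serum for 48 h and then received doxycycline for 12 h, in a study of how resting cells re-enter the cell cycle. The lists do not tell bound E2F1 made from the construct from that made by the cell's own gene. The labels also name 2 input samples of EV cells, which were not analysed here. They do not say whether the replicates were separate cultures, and give no antibody. The deposited lists held 7836 and 8027 peaks in the E2F1 libraries and 70 and 358 in the EV libraries. The lowest local background, the only measure of depth in these lists, was 1.85 reads in E2F1 replicate 1 and 1.86 in replicate 2.

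E2F1 is an activating member of the E2F family. It binds DNA as a pair with a DP protein, and the retinoblastoma protein holds it inactive in resting cells until cyclin-dependent kinases phosphorylate that protein. Its known targets in fibroblasts include genes for DNA replication, nucleotide supply and cell cycle control, and its sites lie mostly in promoters rich in CG dinucleotides. The usual form of its site is a run of T followed by C and G letters.

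The promoters of the highest sites are shown first, because they show which E2F words the highest sites hold and where such words are absent. Each line gives the 150 bases before a RefSeq gene start on GRCm38.p6, 5′ to 3′ on the gene's strand. The 8-base E2F words searched were TTTCCCGC, TTTCGCGC, TTTGCCGC and TTTGGCGC, on either strand. The 7-base words are the same without the first T, so every 8-base match is also a 7-base match. Capitals mark the 7-base words, and a word on the other strand reads as its reverse complement, such as GCGGGAA for the first of them. The gene starts belong to Hmgn2 (nucleosome-binding protein), Ccne1 (cyclin E1), Mdc1 (mediator of the DNA damage checkpoint), Pds5a (cohesin regulator), Dek (chromatin-binding protein), E2f7 (repressive E2F), Mxd3 (repressor of the Myc network) and the long non-coding RNA gene Gm38882.
Hmgn2, chr4:133967992-133968141, minus strand: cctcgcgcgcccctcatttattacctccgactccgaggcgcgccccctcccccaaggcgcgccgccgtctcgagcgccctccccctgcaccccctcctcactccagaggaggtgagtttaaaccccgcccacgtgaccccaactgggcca
Ccne1, chr7:38107491-38107640, minus strand: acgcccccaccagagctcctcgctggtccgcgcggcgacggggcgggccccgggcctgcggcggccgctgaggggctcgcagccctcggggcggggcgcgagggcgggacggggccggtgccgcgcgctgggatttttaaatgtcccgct
Mdc1, chr17:35841348-35841497, plus strand: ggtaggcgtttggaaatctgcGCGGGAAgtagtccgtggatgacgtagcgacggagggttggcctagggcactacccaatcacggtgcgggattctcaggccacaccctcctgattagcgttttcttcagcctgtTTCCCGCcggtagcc
Pds5a, chr5:65698237-65698386, minus strand: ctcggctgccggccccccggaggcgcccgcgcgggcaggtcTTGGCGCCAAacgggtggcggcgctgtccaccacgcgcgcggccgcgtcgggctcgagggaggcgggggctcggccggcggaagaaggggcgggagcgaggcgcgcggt
Dek, chr13:47106222-47106371, minus strand: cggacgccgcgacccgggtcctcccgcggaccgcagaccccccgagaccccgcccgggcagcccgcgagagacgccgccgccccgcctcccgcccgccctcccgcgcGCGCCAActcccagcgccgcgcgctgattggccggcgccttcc
E2f7, chr10:110745289-110745438, plus strand: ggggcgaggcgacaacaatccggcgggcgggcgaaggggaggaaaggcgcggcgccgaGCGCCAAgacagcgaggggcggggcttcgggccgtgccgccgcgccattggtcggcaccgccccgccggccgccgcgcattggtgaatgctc
Mxd3, chr13:55329732-55329881, minus strand: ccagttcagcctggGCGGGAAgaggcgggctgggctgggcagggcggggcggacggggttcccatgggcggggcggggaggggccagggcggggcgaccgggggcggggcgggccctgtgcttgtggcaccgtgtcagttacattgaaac
Gm38882, chr6:117879483-117879632, plus strand: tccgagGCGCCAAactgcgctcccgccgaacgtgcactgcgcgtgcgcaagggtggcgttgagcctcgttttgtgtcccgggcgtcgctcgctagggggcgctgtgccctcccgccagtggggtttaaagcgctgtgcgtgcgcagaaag

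The 8 sequences differ in their words. Mdc1 holds TTCCCGC close to the start and its reverse further upstream, and Pds5a holds TTGGCGC overlapping its own reverse in 1 run, so that both strands match. Dek and E2f7 each show 1 TTGGCGC on the other strand, as does Gm38882 with the longer 8-base form, and Mxd3 shows 1 TTCCCGC on the other strand. Hmgn2 and Ccne1, the sites with the highest and second highest mean fold, hold none of the words in the window from 250 bases before to 50 bases after the start. That says only that these letters are not in this window.

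Promoters without a word were also found further down the ranking, and 3 are shown for contrast. They belong to Slbp (the stem-loop-binding protein of histone mRNAs), Tulp4 (a tubby-like protein) and Raly (an RNA-binding protein of the hnRNP family). No capitals appear because none of the 7-base words occurs in the window.
Slbp, chr5:33652575-33652724, minus strand: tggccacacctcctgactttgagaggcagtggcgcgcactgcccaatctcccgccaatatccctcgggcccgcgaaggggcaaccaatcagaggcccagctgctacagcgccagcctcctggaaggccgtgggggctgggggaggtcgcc
Tulp4, chr17:6106680-6106829, plus strand: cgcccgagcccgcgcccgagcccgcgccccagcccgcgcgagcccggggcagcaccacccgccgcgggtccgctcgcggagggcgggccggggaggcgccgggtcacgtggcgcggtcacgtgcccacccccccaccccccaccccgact
Raly, chr2:154790960-154791109, plus strand: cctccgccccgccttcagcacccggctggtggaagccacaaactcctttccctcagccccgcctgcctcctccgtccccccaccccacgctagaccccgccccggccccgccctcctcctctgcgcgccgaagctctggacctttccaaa
At the other end were promoters with several words. H4c1, a histone H4 gene, had 4 matches of the 8-base word in its window, more than any other promoter at these sites, and 3 of them lie in the stretch shown. Sp3, a transcription factor that binds GC boxes, had 2 in its window, of which 1 is shown. Pola1, the catalytic subunit of DNA polymerase alpha, had 4 matches of the 7-base word in its window, 1 of them with 8 bases. These were chosen after their counts of words were seen.
H4c1, chr13:23761250-23761399, minus strand: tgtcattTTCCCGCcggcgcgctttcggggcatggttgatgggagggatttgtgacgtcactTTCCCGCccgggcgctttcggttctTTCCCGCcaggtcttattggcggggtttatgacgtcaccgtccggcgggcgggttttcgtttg
Sp3, chr2:72980447-72980596, minus strand: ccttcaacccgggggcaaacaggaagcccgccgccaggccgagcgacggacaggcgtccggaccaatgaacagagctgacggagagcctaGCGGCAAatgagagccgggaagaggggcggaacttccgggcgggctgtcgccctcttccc
Pola1, chrX:93632156-93632305, minus strand: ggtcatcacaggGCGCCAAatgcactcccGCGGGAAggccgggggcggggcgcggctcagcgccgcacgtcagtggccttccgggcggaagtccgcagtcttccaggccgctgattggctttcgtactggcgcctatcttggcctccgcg

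The highest site lay at Hmgn2 and the neighbouring Dhdds, at chr4:133966896-133968557, with a fold of 82.5 in replicate 1 and 104 in replicate 2. At Ccne1, whose product activates Cdk2 at entry into S phase, the fold was 65.04 in replicate 1 and 132 in replicate 2. Mdc1 had the highest fold of all in replicate 2, 134, and 57.4 in replicate 1. In the order of the geometric mean of both folds, Pds5a followed with 67.5 and 104, and Dek with 73.3 and 90.6. The uncharacterised gene 8030462N17Rik came next with 68.0 and 92.0. These 6 sites were high in both libraries, and replicate 2 was the higher one at each.

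E2f7 had 53.9 in replicate 1 and 107 in replicate 2, and Mxd3 had 63.4 and 79.0. The site between the non-coding genes Gm38883 and Gm38882, 5997 bp from Zfp239, had 42.9 and 113. Tcf19 shared a site with Cchcr1 at 55.6 and 86.4. Tfdp1, the DP partner of E2F proteins, had 55.4 and 85.8. The widest difference among the highest 15 was at Fbxo45, a ubiquitin ligase subunit, and Wdr53, with 34.3 in replicate 1 and 128 in replicate 2. Slbp, sharing a site with Tmem129, had 46.5 and 90.5. The site at Ssrp1, a subunit of the FACT histone chaperone, and P2rx3, an ATP-gated channel, had 57.9 and 71.7. Mir1893, inside Epc1, closed the 15 with 53.0 and 77.7. All 15 were higher in replicate 2.

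**Figure D1:**
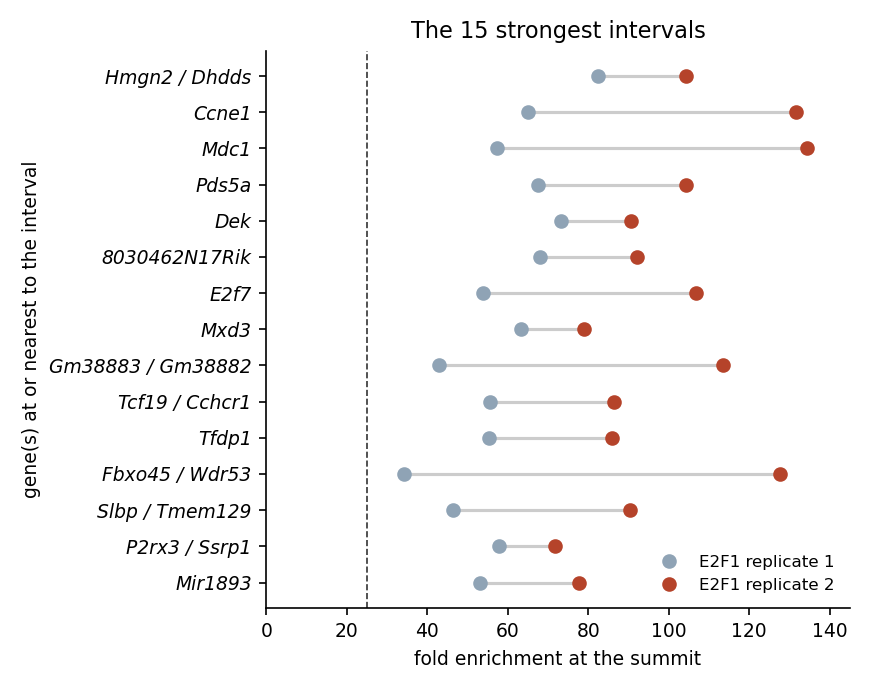
Fold enrichment in each E2F1 replicate at the 15 sites with the highest geometric mean fold, with the genes at or nearest to each site on the vertical axis and a dashed line at the threshold of 25. The 2 points of a site are its 2 libraries, and replicate 2 lies to the right at all 15, from 71.7 at P2rx3 and Ssrp1 to 134 at Mdc1.

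Over all 384 sites, the fold in replicate 1 had a median of 32.4 and ranged from 25.1 to 82.5. In replicate 2 the median was 42.8 and the range 25.1 to 134. The other 6617 shared intervals had medians of 9.48 and 12.2, a difference that the choice of the sites fixes. Replicate 2 was the higher library at 299 sites (77.9%) and at 69.8% of the other intervals. The ratio of replicate 2 to replicate 1 had a median of 1.29 among the sites and 1.26 among the others. Both folds reached 50 at 23 sites. Across the sites Spearman's correlation of both folds was 0.35, and across all shared intervals 0.70. The first value is taken within the range that the threshold leaves, and both are descriptions over sites of the same 2 libraries.

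**Figure D2:**
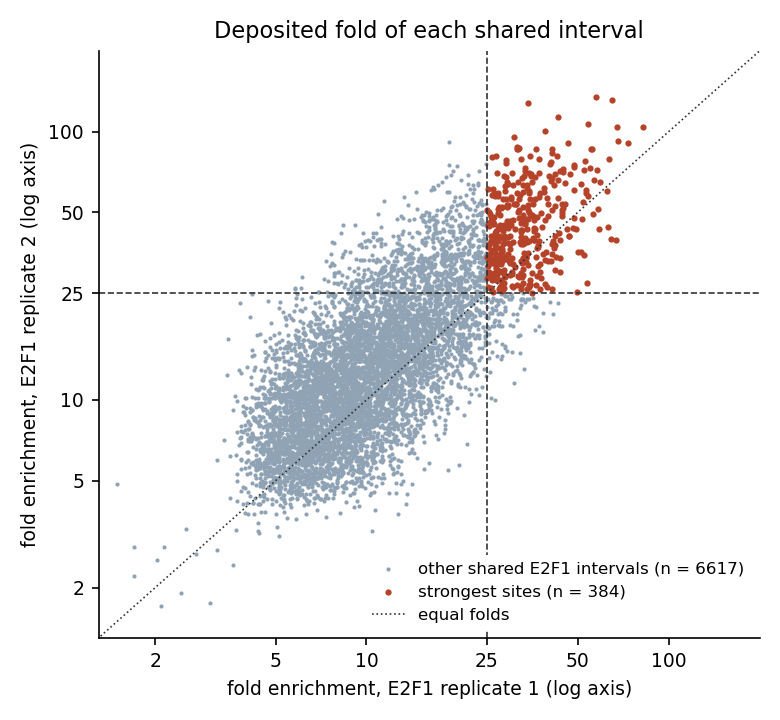
Fold enrichment in replicate 2 against replicate 1 for the 7001 shared intervals, on log axes, with the 384 selected sites in red, dashed lines at the threshold of 25 and a dotted line at equal folds. More intervals pass the line of replicate 2 (1213) than that of replicate 1 (480).

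The threshold in replicate 1 did most of the choosing, since 480 shared intervals reached 25 there and 1213 in replicate 2. Just inside the threshold lay Lsm2 (an Sm-like splicing protein) with 25.1 and 51.0, Hectd2 with 25.1 and 28.6, Snrpf with 25.1 and 34.0, Nup85 with 35.4 and 25.1, and the pair Hps5 and Gtf2h1 with 25.2 and 37.6. Just outside lay Mthfd2, a mitochondrial folate enzyme, with 32.9 and 24.97, Sox12 with 24.96 and 30.4, Pcbp2 with 24.9 and 29.5, the pair Cbx5 and Hnrnpa1 with 24.9 and 35.3, and Nrep with 24.9 and 25.9. The sites on either side of the line thus had nearly the same folds.

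Pileup and local background at each summit were solved from the fold and the −log10 p-value, and tell where the difference between the libraries lay. The sites had a median pileup of 152.5 reads in replicate 1 (71 to 422) and 159.5 in replicate 2 (71 to 615). Their local background had a median of 3.49 reads in replicate 1 and 2.32 in replicate 2. The background was more than 2 times the lowest one of the library at 181 sites (47.1%) in replicate 1 and at 47 (12.2%) in replicate 2. So the pileups of both libraries were close in the median, while the denominators of the folds were higher in replicate 1. Which control the peak lists used is not stated, so the source of this background is unknown. At Fbxo45 and Wdr53 the pileup was 245 against 364 and the background 6.17 against 1.86.

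Fbxo45 and Wdr53 also had the highest ratio of replicate 2 to replicate 1, 3.72. Srsf3, a splicing factor with serine and arginine repeats, followed with 30.9 and 95.8, a ratio of 3.10. At Srsf3 the pileup was 256 reads in replicate 1 and 291 in replicate 2, whereas the background was 7.33 in replicate 1 and 2.05 in replicate 2. In the opposite direction stood Anapc15, a subunit of the anaphase-promoting complex, with 49.9 in replicate 1 and 25.2 in replicate 2 (ratio 0.505). Hat1, a histone acetyltransferase of new histones, had 53.6 and 27.3 (ratio 0.510), and Fbxo5, an inhibitor of the anaphase-promoting complex, had 66.9 and 39.5 (ratio 0.591). Their background was the lower one in replicate 1, at 1.93, 1.93 and 1.85 reads against 3.48, 3.10 and 3.10.

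Every site held exactly 1 peak of each library. The summits of both libraries lay within 50 bp of each other at 253 sites (65.9%) and at 46.4% of the other intervals, with median gaps of 33.5 and 57 bp. The sites had a median length of 1716 bp (548 to 5147), and the other intervals 1064 bp. Length and the place of a summit rest on the same pileups as the fold, so these values are descriptions. Ranking by the deposited score, which grows with pileup as well as fold, would have kept a different set: 285 of the 384 sites were among the first 384 intervals by score in replicate 1 and 221 in replicate 2.

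Some of the genes that turn E2F activity on and off had one of the strongest sites, as did 1.81% of all protein-coding genes. Of 10 E2F and DP genes, 4 had a site: E2f7 and E2f8, the atypical E2F repressors, Tfdp1, and E2f1 itself. E2f8 had 39.0 in replicate 1 and 100.3 in replicate 2. E2f1 had 34.0 and 38.8 and ranked 226 among all shared intervals. E2f2, another activator, missed the threshold with 32.4 and 22.6. Among 11 pocket protein and MuvB genes, 3 had a site. They were Rb1, the retinoblastoma gene, with 51.2 and 63.7, its relative Rbl1 with 52.6 and 34.6, and Foxm1, a transcription factor of mitotic genes, with 25.7 and 45.8. E2f3 had 13.0 and 15.6, and E2f4, E2f5, E2f6 and Tfdp2 had no site either. The pocket protein gene Rbl2 was far below the threshold with 7.06 and 7.26. Activators, repressors and the restraining pocket proteins were thus each represented, but only by some of their genes.

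A count in a gene list is read against all protein-coding genes, of which 397 of 21883 (1.81%) had a boundary within 1000 bp of a site. Another reading is against the 6816 genes (31.1%) with any shared interval, of which 5.82% were at one of the strongest sites and whose median geometric mean fold was 11.4. Of the 463 genes in the 22 lists, 360 had a shared interval and 72 had one of the strongest sites, which is 20% of those with an interval. The lists hold known cell cycle genes and were written with results of these data known, so these counts describe the sites and support nothing further.

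The cyclins gave 4 sites among 21 genes of cyclins and their kinases. Besides Ccne1 these were Ccne2 (cyclin E2) with 45.3 and 64.5, Ccnf (cyclin F) with 31.8 and 85.9, and Ccna2 (cyclin A2) with 25.4 and 50.05. No gene of a cyclin-dependent kinase on the list had one. Of 7 inhibitor genes 1 was counted, Cdkn1b, which encodes p27 and holds resting cells out of the cycle. Its site, with 43.4 in replicate 1 and 42.05 in replicate 2, lay 810 bp beyond the end of the gene and 5934 bp from its listed start. The site covered the start of the non-coding gene Lockd instead, and within 500 bp the count of inhibitor genes was 0.

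Among replication genes, licensing of origins gave 2 of 18 genes, the licensing factor Cdt1 with 42.4 and 34.1 and Mcm9 with 26.6 and 42.0. None of the 6 subunits of the replicative MCM helicase had a site. Mcm2 and Mcm4 came nearest with 21.9 and 35.3 and with 21.6 and 35.7, Mcm6 reached 28.1 in replicate 1 but 14.5 in replicate 2, and Mcm5 was the lowest with 7.06 and 11.5. Origin firing and the fork gave 4 of 16. These were Cdc7, the kinase that fires origins, with 44.7 and 52.0, Topbp1 with 29.3 and 53.2, and the fork protection genes Timeless with 36.3 and 34.0 and Clspn with 27.4 and 36.7.

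The polymerases, clamp and clamp loader had 8 of 23 genes at a site. Pcna, the sliding clamp, was the highest with 54.0 and 57.5 in a site shared with Cds2. Pole4 had 41.1 and 51.0, Pold2 34.1 and 47.2, Pold3 39.8 and 32.8, and Pola1 28.7 and 40.6. The remaining 3 were the clamp loader gene Rfc4, the primase gene Prim1 and the flap nuclease gene Fen1, with folds from 25.3 to 31.5. Rfc1, the large subunit of the clamp loader, is not among the 8, because its site lies inside the gene and more than 1000 bp from the outer boundaries. That site was higher than the one at Rfc4, with 41.9 and 69.5, and its summits lay 115 and 5 bp downstream of a listed Rfc1 start. Genes of deoxynucleotide synthesis gave 2 of 13. They were Dck, the kinase that salvages deoxycytidine, with 35.1 and 68.1, and Rrm1, the large subunit of ribonucleotide reductase, with 27.8 and 25.9. The small subunit Rrm2 (28.7 and 15.9), thymidine kinase Tk1 (27.5 and 19.7) and thymidylate synthase Tyms (18.6 and 9.92) were below the threshold in at least 1 library.

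Chromatin genes held some of the highest sites. Histone supply and assembly gave 4 of 15 genes, Slbp, Ssrp1, Hat1 and the helicase gene Hells, the last with 35.6 and 40.02. Polycomb and DNA methylation gave 2 of 12, both core subunits of the complex that methylates histone H3. Eed had 44.6 and 70.7 and Ezh2 had 34.7 and 81.3. High mobility group proteins gave 3 of 9, Hmgn2, Hmgb2 with 34.9 and 26.9 and Hmgn1 with 27.0 and 29.2. Cohesin and condensin gave 3 of 20: Pds5a, the cohesin subunit Smc3 with 58.7 and 43.4, and the condensin subunit Ncapd2 with 41.0 and 34.9. Stag1, another cohesin subunit, is not counted for the same reason as Rfc1. A site inside it, with 62.7 and 44.2, had its summits 603 and 758 bp downstream of a listed start. Rfc1 and Stag1 were the only list genes with a site inside them that the boundary count left out.

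Repair and checkpoint genes gave 5 of 47. Mdc1 was followed by Usp1, which removes ubiquitin from PCNA, with 31.5 and 87.5, and by Brca2 with 32.9 and 48.8, the glycosylase gene Neil3 with 35.9 and 46.9 and the ubiquitin ligase gene Rad18 with 35.4 and 29.8. Mitotic kinases and the spindle checkpoint gave 1 of 19, Incenp with 27.4 and 40.1, and Aurkb, the kinase that Incenp binds, had 32.1 and 17.5. Centromere and kinetochore genes gave 5 of 33, of which Ndc80 with 27.3 and 57.3 and Nuf2 with 32.6 and 45.8 encode partners in the complex that holds microtubules. The other 3 were Cenpm, Cenpb and Mis12, with folds from 27.5 to 43.6. The anaphase-promoting complex and SCF ligases gave 3 of 25: Ube2s, a ubiquitin-conjugating enzyme, with 42.8 and 80.8, Fbxo5, and Anapc5 with 44.2 and 50.9. That list did not hold Anapc15, whose site is given above, or Anapc13, a promoter window of which touched a site.

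Several lists outside the cell cycle were also represented. Splicing and RNA-binding proteins gave 9 of 37, led by Srsf3 and by Hnrnpa3 with 32.5 and 79.1. Snrpd1 had 33.8 and 47.2, Hnrnpr 26.7 and 57.9, U2af2 36.8 and 37.9, and Srsf2 32.9 and 38.3, while Srsf1, Hnrnpk and Hnrnpu lay between 25.7 and 34.9. The nuclear envelope and nucleoporins gave 7 of 31. Lmnb1, a lamin, had 56.5 and 65.8, Tmpo, a lamina-associated protein, 37.1 and 70.0, and Lbr, the lamin B receptor, 34.6 and 56.0. Ran, the GTPase of nuclear transport, had 49.2 and 43.3, and its exchange factor Rcc1 had 39.9 and 48.6. The last were Nup85, given above, and Banf1 with 25.3 and 26.3.

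Of 18 apoptosis genes 1 was at a site. Bcl2l11, which encodes the death-promoting protein Bim, missed it in replicate 1 with 24.9 and had 39.9 in replicate 2. Ribosomal proteins gave 1 of 37, Rps20 with 28.8 and 59.8, and the 20 with a shared interval had a median of 8.07. None of 23 immediate early genes had a site. Of these, 15 had a shared interval, with a median of 11.2, Fosl2 had 24.1 and 50.1, and 3 were counted at a fold of 20. None of 18 genes of olfactory receptors and keratins, included as genes of other cell types, had one, and 1 of them had a shared interval.

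**Figure D3:**
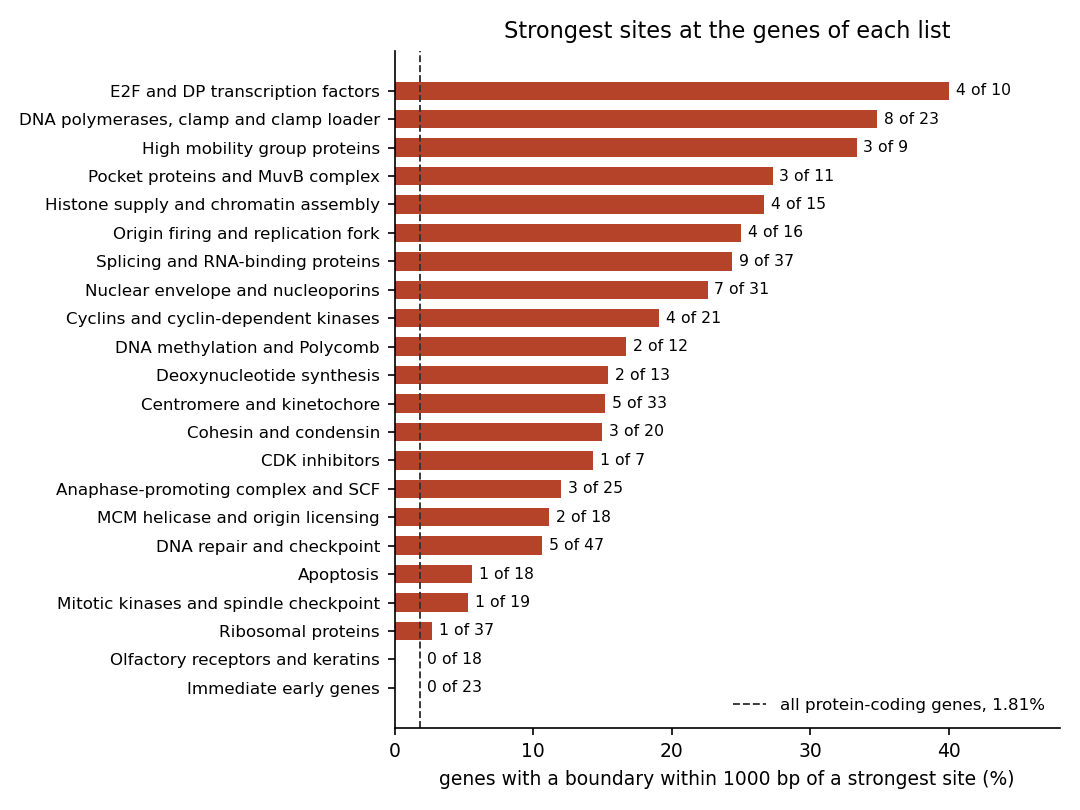
Share of the genes of each list that lie within 1000 bp of a strongest E2F1 site, in percent, with the number of genes of each list beside the bar and a dashed line at the share over all protein-coding genes (1.81%). The longest bar is that of the E2F and DP genes (4 of 10). Immediate early genes (0 of 23) and genes of olfactory receptors and keratins (0 of 18) have none, which is near the share over all genes.

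The EV libraries held a peak at almost none of the sites. Of the 384 sites, 0 were overlapped by a peak of EV replicate 1 and 1 by a peak of EV replicate 2, a share of 0.260% (Wilson 95% interval 0.0460 to 1.46). A count of 0 of 384 allows a share of up to 0.781%, which covers counting error only. Of the other shared intervals 15 of 6617 (0.227%) were overlapped in either EV library. The single case was Lmnb1, where the EV peak at chr18:56708167-56708475 had a fold of 13.3 and ranked 5 by fold among the 358 of its list. At the same site the E2F1 libraries had 56.5 and 65.8. The EV lists hold only peaks above a significance cutoff, so the lack of a peak does not show a lack of signal, and 2 libraries against 2 cannot give an exact test below the usual 0.05.

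By position, 332 of the 384 sites (86.5%, Wilson 95% interval 82.7 to 89.5) lay within 1000 bp of the boundary of a protein-coding gene, and 83.4% of the other shared intervals did. A boundary is the start or the end of a gene. A further 14 sites (3.65%) were at the boundary of another kind of gene, 29 (7.55%) were inside a protein-coding gene away from its boundaries and 9 (2.34%) were elsewhere. Among the others these shares were 4.17%, 9.82% and 2.61%, so the strongest sites lay in much the same places as the rest. A site touched 2 or more protein-coding genes in 64 cases (16.7%) and in 15.8% of the others. Shares by chromosome ran from 3 of 134 shared intervals on the X chromosome (2.24%) to 25 of 352 on chromosome 17 (7.10%), and the 1 shared interval on the Y chromosome was not a site.

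Being inside a gene by this count did not mean being far from a start. Of 27 sites inside a protein-coding gene on chromosomes with listed starts, 24 had both summits within 1000 bp of a RefSeq start. Trmo, a tRNA methyltransferase gene, is of this kind with 47.3 and 69.3. Its summits lay 59 and 74 bp downstream of a listed start.

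The highest sites away from protein-coding boundaries, after those at Gm38882 and Mir1893, included 3 of the 9 sites shorter than 700 bp. Gm6787, a pseudogene, had 59.4 and 64.7 over 554 bp at chrX:8096429-8096982. A site 3849 bp from Gpkow had 62.5 and 59.9 over 558 bp at chrX:7714110-7714667. Gm5464, a non-coding gene within the bounds of Dpysl2, had 53.4 and 59.1 over 693 bp at chr14:66868705-66869397. These 3 had nearly equal folds in both libraries. The site 1467 bp from Gpr84 had 48.7 and 73.7. The site 38028 bp from Ptma, which encodes prothymosin alpha, had 41.2 and 86.4 at chr1:86486705-86488529. It was 1 of 3 sites in a row, 43168 bp after the site at Gm32700 and 35941 bp before the site at Ptma itself. Only 3 other pairs of sites were within 50000 bp of each other: Cox20 and Hnrnpu, Sumo2 and Nup85, and Eif4a2 and Rfc4.

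A microRNA gene of the let-7 family was also at a site, chosen for mention after its values were seen. Mirlet7i, at chr10:122984237-122986952, had 43.5 in replicate 1 and 71.0 in replicate 2 and lay 5108 bp from Mon2. The let-7 family is known for repressing genes of growth and pluripotency. The mature strand, at chr10:122985698-122985719 on the minus strand, is shown with its seed (bases 2 to 8) in capitals.
mmu-let-7i-5p: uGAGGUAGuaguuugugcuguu

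The summits of the sites lay on both sides of the gene start. Among sites with a summit within 1000 bp of a listed start, 293 in each library, the summit was downstream of the start at 172 (58.7%) in replicate 1 and at 158 (53.9%) in replicate 2. Among the other intervals 76.2% and 67.3% were downstream. A summit within 250 bp of a start was found at 228 of 372 sites in replicate 1 and at 234 in replicate 2. The strongest sites were thus spread more evenly around the start, with the summit upstream at many of them, as at Ccne1, where it lay 375 and 350 bp upstream. The difference from the other intervals is a description of these libraries and was not tested.

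**Figure D4:**
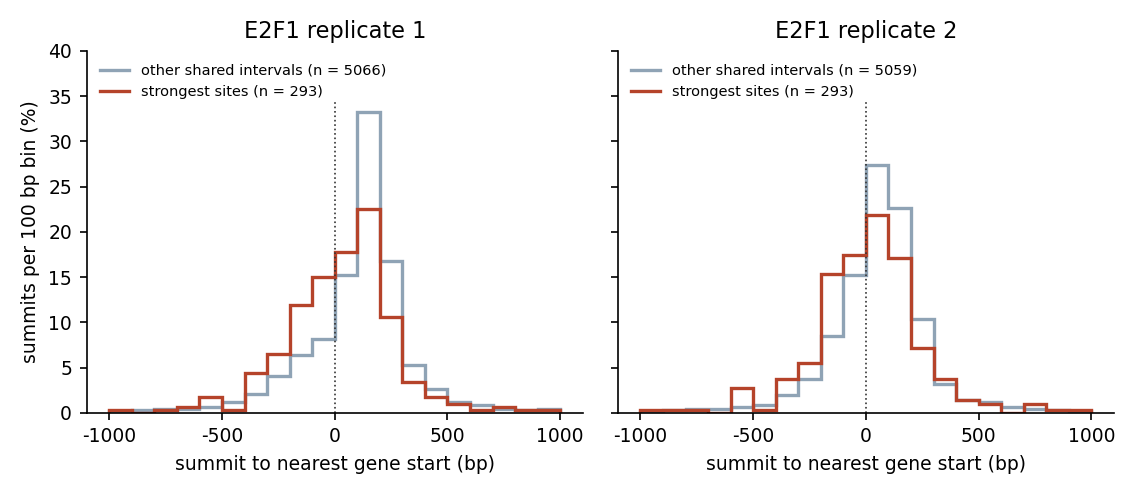
Distance from the summit to the nearest listed gene start in bp, for summits within 1000 bp, as the percent of the strongest sites and of the other intervals in each bin, by replicate. Positive values are downstream of the start, and the other intervals have more of their summits there (76.2% in replicate 1 and 67.3% in replicate 2).

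E2F words were more common in the promoters of the strongest sites than in those of weaker ones. The promoter windows ran from 250 bases before to 50 after each RefSeq start, and 421 of them, at 296 sites, touched a site. Windows of neighbouring starts at 1 site can overlap, so the shares are also given by site. The 8-base word occurred in 56 of the 421 (13.3%, Wilson 95% interval 10.4 to 16.9), in 5.34% of 6961 windows at other shared intervals, in 1.23% of 25435 windows at none and in 2.26% of all 32817. The 7-base word occurred in 151 (35.9%, 31.4 to 40.6), in 22.3% at other intervals, in 5.65% at none and in 9.57% of all. Counted by site, 50 of 296 sites (16.9%) had an 8-base word in a window and 131 (44.3%) had a 7-base word, against 6.22% and 25.3% of other intervals. Most sites with a window thus had no such word in it, and the differences between the groups of windows were not tested.

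The shares rose with the smaller of both folds. The 7-base word was in 16.8% of windows at intervals with a smaller fold under 5, in 19.7% from 5 to 10, in 23.1% from 10 to 15, in 28.4% from 15 to 20 and in 36.0% from 20 to 25. At the strongest sites it was 35.9%, so the rise did not go on past the threshold. The 8-base word went from 4.76% and 4.17% in the lowest classes to 11.8% from 20 to 25 and 13.3% at the strongest sites, with intervals for the last 2 classes that overlap (9.12 to 15.2 and 10.4 to 16.9).

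Base composition moved along with these shares. The median GC content of the windows was 67.7% at the sites, 65.3% at other intervals and 50% at none, and the median number of CG dinucleotides was 32, 26 and 5. Within bands of similar GC content the order of the sites and the other intervals was the same. From 55 to 65% GC the 8-base word was in 19.6% of 97 windows at the sites and 6.78% of 2507 at other intervals, from 65 to 75% in 15.8% of 183 and 4.85% of 2723, and from 75 to 85% in 6.45% of 93 and 2.49% of 843. The Wilson intervals overlapped in the last band only (2.99 to 13.4 and 1.64 to 3.78). For the 7-base word the 3 shares at the sites were 33.0%, 44.3% and 32.3%, and at the other intervals 22.3%, 24.4% and 20.3%. These bands, which leave out windows below 55% and above 85% GC, were chosen after the data were seen. Within them the sites had more CG dinucleotides, with medians of 24, 33 and 46 against 22, 31 and 43 at other intervals. Composition was thus not held equal, and its part in the shares was not tested.

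Other motifs of cell cycle promoters were searched in the same windows. CCAAT, the site of NF-Y, was in 33.0% of windows at the sites, 36.4% at other intervals and 37.4% of all windows. TTTGAA, the core of the cell-cycle homology region bound by MuvB, was in 12.1%, 9.38% and 17.9%. GGGCGG, the GC box of Sp factors, was in 77.7%, 76.3% and 35.6%. All were searched on both strands, and the GC box read on the other strand can share letters with TTCCCGC. For these 3 motifs the Wilson intervals of the sites and of the other intervals overlapped, and no difference was tested.

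**Figure D5:**
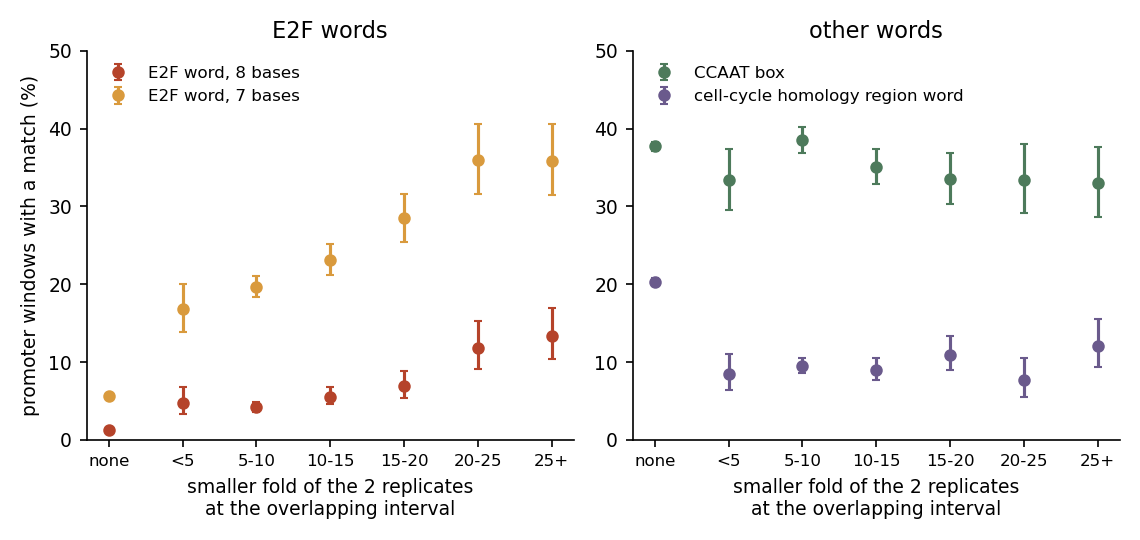
Percent of promoter windows of 300 bases that hold the 8-base or the 7-base E2F word (left) and CCAAT or TTTGAA, the cell-cycle homology region word (right), by the smaller fold of both replicates of the interval they touch (none, no shared interval), with Wilson 95% intervals as bars. The E2F shares rise from the class of 5 to 10 to that of 20 to 25, and lie at 13.3% and 35.9% at the strongest sites.

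In the windows that held the summits of both libraries, 127 at the sites and 1355 at other intervals, the shares were higher. The 8-base word was in 17.3% and 6.49% of these, and the 7-base word in 49.6% and 29.5%. The position of the word relative to the summit was also measured in the 63 windows at the sites with both summits and a 7-base match. The nearest match lay within 50 bp of the summit in 31 (49.2%) in replicate 1 and in 46 (73.0%) in replicate 2. At other intervals, with 400 such windows, these shares were 44.0% and 52.8%. The words thus lay closer to the summits of replicate 2 than to those of replicate 1, at the strongest sites as well as at the others. Lying near the summit, and more often so in replicate 2, was not particular to the E2F words, as the GC box did the same. In windows at the sites the GC box GGGCGG lay within 50 bp in 62.4% of 109 in replicate 1 and 72.5% in replicate 2. For CCAAT, with 31 such windows, these shares were 19.4% and 45.2%. For TTTGAA, with 10 such windows, the share was 40% in both libraries.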

How the data were processed

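Peak lists of 4 ChIP-seq libraries were used, 2 of E2F1 cells and 2 of EV cells, in the narrowPeak layout, with groups and replicate numbers from the titles. Per the submitters' processing notes, the tools were FastQC, Trimmomatic, Bowtie2, MACS2 and ChIPseeker and the build mm10, with their versions and settings not given in the sources used here; the extraction protocol in the labels describes RNA. The deposited score is a whole number per peak, the deposited fold is a ratio of pileup to local background, and a −log10 p-value and a −log10 q-value were deposited for each peak. Peaks were called per sample, as each library has its own deposited list. Neither reads nor library totals were analysed here, so depth is known only through the local background.

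From these lists, peaks sharing at least 1 bp were merged, and sites were chosen by a fold of at least 25 in both E2F1 libraries. Whole-number pileups and the background were solved from fold and −log10 p with a pseudocount of 1, for all peaks at the sites. Genes, gene starts, promoter sequences and the miRNA came from RefSeq tables of GRCm38.p6, which has the coordinates of mm10. No promoter window on chromosome 18, where 12 sites lie, was used, and 88 sites in all had no window. Shares have Wilson 95% intervals, for counting error only. No test was run, since the folds chose the sites and regions are not replicates. Merging, solving and motif search were tested on simulated data. Python 3.11.15, pandas 2.3.3, NumPy 2.4.6, SciPy 1.17.1 and matplotlib 3.10.9 were used. The members and gene lists were chosen with earlier results of these data known, and the spelling of the symbol Clspn in 1 list was corrected after the sites had been seen. Genes named are the 15 sites with the highest geometric mean fold, the 5 on each side of the threshold, up to 6 per gene list plus all in lists of up to 20 genes by count, the 8 highest away from protein-coding boundaries, the site with an EV peak, 3 ratios at each end, and E2f1; 2 sites that this rule names are not reported here. Other list genes below the threshold are named with values chosen after these were seen. Alternatives were other thresholds, overlap rules, distances, a ranking by score, each library left out and other motif definitions.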

Additional observations from a re-analysis of the deposited data

How the results depend on the processing

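The number of sites depends on the threshold: 748 intervals passed a fold of 20 in both libraries and 202 a fold of 30. Leaving out an E2F1 library moved it between 480 (without replicate 2) and 1213 (without replicate 1), and 371 sites remained when peaks had to overlap by 50% of each. The share at protein-coding boundaries lay between 83.6% (the same number of intervals by mean score) and 88.3% (within 2500 bp), and was 90.1% with the boundaries of all genes. The number of sites overlapped by an EV peak was 0 without EV replicate 2 and 1 without EV replicate 1. The share of promoter windows with an E2F word was 35.9% with the 7-base word and 17.3% in windows holding both summits. List genes at a site numbered 109 at a fold of 20 and 47 at a fold of 30. These moves follow from the alternatives' own construction. Of the 24 alternatives for these 5 results, 15 stayed within the counting interval or within 1.5 times, and of 88 for single gene lists 70 did and 18 moved. The 15 include the number of sites under the ranking by mean score, which was set to 384 and could not move. Only 262 of the intervals kept by that ranking were among the strongest sites. No paired analysis was possible because the results come from no test and the E2F1 lists were merged into 1 set of sites. Weaker peaks are missing from the lists, so a gene without a shared interval may still be bound.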
